A study of Mus musculus with 6 samples.

Results

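Inka2, Psors1c2, Banf1, Dapl1, Gm42047 and D630023F18Rik are 6 little-studied mouse genes that were selected on their lower level after loss of p53, and because they lie outside a list of canonical p53 targets. They are 6 of the 55385 genes in the count files, and all 6 passed the filter on low counts that left 28543 genes for testing. The RNA came from mature medullary thymic epithelial cells, the MHC class II-high fraction (mTEChi), sorted at 75000 cells a sample from mice of 4 to 5 weeks. The 3 control libraries were labelled as wild type for p53 and without Cre (WT below), and the 3 others as a conditional knockout of p53 (cKO below). The labels used here name no Cre driver and do not say whether the controls carried the conditional allele. They also do not say that each library came from separate animals, so the p-values below measure only the spread between these libraries, which may be technical.

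p53, encoded by Trp53, is a transcription factor that binds DNA at response elements made of 2 half-sites and raises transcription of genes for cell cycle arrest, DNA repair and cell death, of which Cdkn1a is the best known. Mature medullary epithelial cells display tissue-restricted antigens to developing T cells, many of them under the control of Aire, and transcribe an unusually wide range of genes. Genes of skin, eye and other tissues can therefore be read in these cells.

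Among the 6 genes, Inka2 encodes an inhibitor of the kinase PAK4, and its human counterpart has been described as a p53 target. Psors1c2 lies beside the corneodesmosin gene Cdsn in the psoriasis susceptibility region and encodes a small proline-rich protein of skin. Banf1 encodes barrier-to-autointegration factor, which bridges DNA and binds lamins and LEM-domain proteins as the nuclear envelope reforms after mitosis. Dapl1 encodes death-associated protein-like 1, a protein of differentiating epithelia. D630023F18Rik is annotated as protein-coding and Gm42047 as a long intergenic non-coding RNA.

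In GRCm38, the build of the deposited annotation, Inka2 (ENSMUSG00000048458) lies at chr3:105704599-105720842 on the plus strand and Psors1c2 (ENSMUSG00000024409) at chr17:35533201-35534647 on the plus strand. Banf1 (ENSMUSG00000024844) lies at chr19:5364638-5367168 on the minus strand and Dapl1 (ENSMUSG00000026989) at chr2:59484653-59505020 on the plus strand. Gm42047 (ENSMUSG00000110631) lies at chr8:121833247-121841178 on the plus strand and D630023F18Rik (ENSMUSG00000044816) at chr1:65105285-65123214 on the minus strand. All values below were counted over exons, which sum to 4781 bases for Inka2, 843 for Psors1c2, 1496 for Banf1, 679 for Dapl1, 5647 for Gm42047 and 2667 for D630023F18Rik.

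The sequence before each transcription start was searched for the p53 half-site. It was written as 3 purines, a C, A or T, A or T, a G and 3 pyrimidines, a pattern that reads the same on both strands, and a pair was 2 half-sites with 0 to 13 bases between them. RefSeq promoter windows of GRCm38.p6, from 250 bases before to 50 bases after a start, matched 5 of the 6 genes with 7 windows. Inka2 and Banf1 had 2 starts each, and Gm42047 had no entry. The closest pair is shown for the genes with 2 mismatches or fewer, with the Cdkn1a window that held a pair without mismatch for comparison. Each pair was picked by the fewest mismatches alone, for Cdkn1a too, and none is given as a measured p53 site. Capitals mark the 2 half-sites.

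Inka2, chr3:105705355-105705386, plus strand, 1 mismatch: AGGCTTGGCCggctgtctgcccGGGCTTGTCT

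D630023F18Rik, chr1:65123324-65123345, minus strand, 2 mismatches: GCACAAGGTTcaGGGCTAGCCT

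Cdkn1a, chr17:29090906-29090937, plus strand, no mismatch: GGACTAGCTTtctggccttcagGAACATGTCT

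The Inka2 pair lay before the downstream one of its 2 starts, inside the intron of the transcript that begins at the other start. The whole stretch before that start, chr3:105705208-105705457 on the plus strand, is shown because it held the closest pair of the 7 windows, with its 1 half-site without mismatch in capitals:

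Inka2: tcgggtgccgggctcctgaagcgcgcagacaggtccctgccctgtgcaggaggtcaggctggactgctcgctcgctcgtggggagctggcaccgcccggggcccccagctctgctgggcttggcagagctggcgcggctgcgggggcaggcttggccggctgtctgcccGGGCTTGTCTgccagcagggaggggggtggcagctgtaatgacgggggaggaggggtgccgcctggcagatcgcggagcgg

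A pair with at most 1 mismatch was present in 1.09% of the 32851 mouse promoter windows (359 windows) and in 1 of the 7 windows of these genes. With at most 2 mismatches the shares were 10.1% of all windows and 2 of the 7. Psors1c2 and the upstream Banf1 start came next at 3 mismatches, a level that 45.1% of all windows reached, and the Dapl1 window, the other Inka2 start and the other Banf1 start needed 4. A single half-site without mismatch was found in 8.36% of all windows and in 3 of the 7. These are matches of letters within 300 bases, and p53 binding was not measured here.

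Trp53 itself was read first, as a check of the labels. It stood at 116.0, 102.3 and 108.7 CPM (counts per 1e6 counts of the library, scaled by edgeR's TMM factors) in WT replicates 1, 2 and 3 and at 8.16, 7.85 and 7.38 CPM in the cKO libraries, a log2 difference of -3.81, so the labels and the gene go together in all 6 libraries. The libraries held 45457892 to 50128045 counts. Genes of mature medullary epithelium were abundant in all of them: Aire had 1306.5 ± 107.7 CPM in WT against 1046.8 ± 194.9 in cKO, and the summed CPM of 16 marker genes was 35320.7 to 38997.8 in WT and 35806.1 to 38316.0 in cKO.

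All 6 genes were lower in cKO, which is what they were chosen by. With edgeR's quasi-likelihood test and Benjamini-Hochberg adjustment over all tested genes, 5 of the 6 had an adjusted p below 0.05, all but Dapl1. Over all genes 0.0350% passed that threshold in the lower direction (10 of 28543) and 0.0596% in either direction (17 genes). Every cKO library was below every WT library for the same 5 genes, against 7.28% of tested genes. Because this contrast chose the genes, nothing is read from these counts. At the threshold, the member just inside was Banf1 with an adjusted p of 0.0436, and the genes just outside were Foxn1 at 0.0506 and Phlda3 at 0.0560. Dapl1 was far outside at 0.707.

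**Figure D1:**
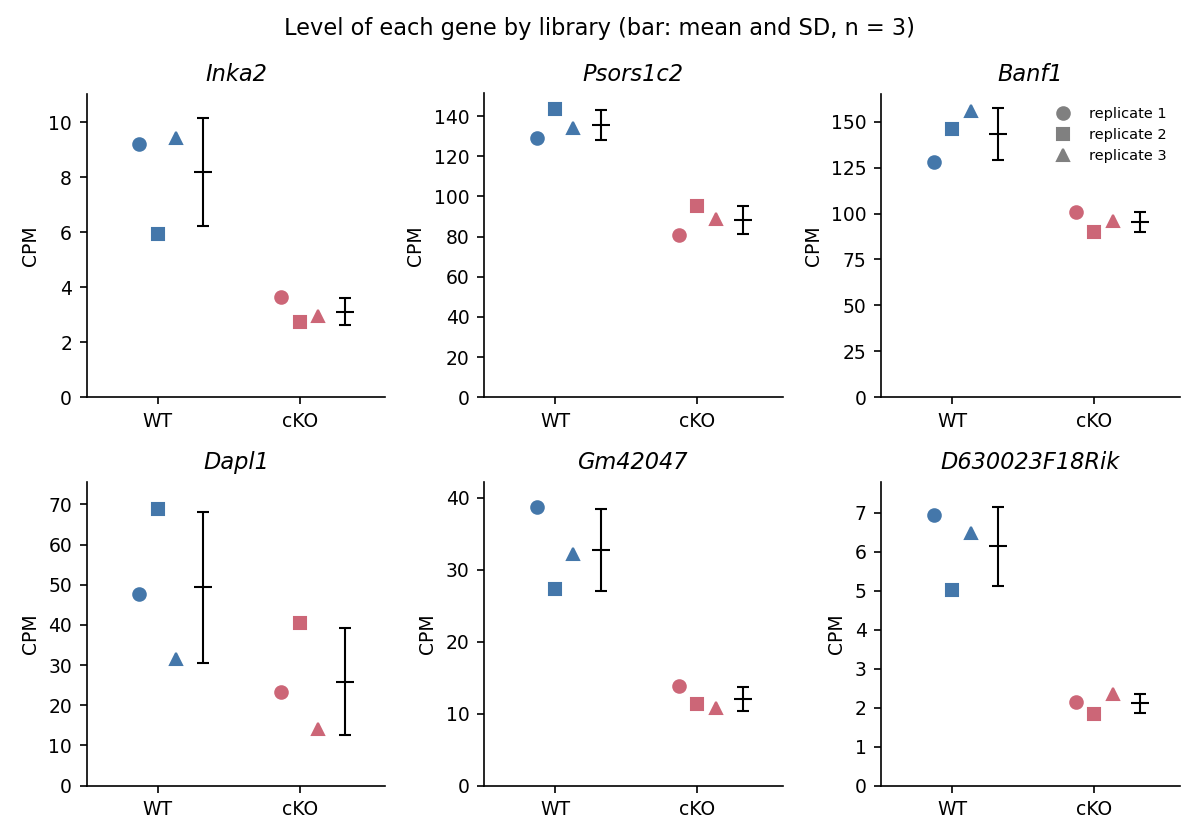
Level of each gene in CPM (vertical axes, from 0, scaled separately) in the 3 WT libraries (blue) and the 3 cKO libraries (red), with symbols for replicate numbers and a bar for the mean and SD. The groups are apart for 5 genes, while for Dapl1 the cKO library of replicate 2 (40.4 CPM) lies above the WT library of replicate 3 (31.5 CPM).

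Psors1c2, the skin gene, was the most abundant of the 6 per length of transcript. Its WT libraries had 128.9, 143.7 and 134.2 CPM and its cKO libraries 80.8, 95.1 and 88.8. The groups did not overlap, and replicate 2 was the highest library in both. The means were 135.6 ± 7.49 and 88.2 ± 7.15 CPM (SD, n = 3), so that cKO held 65.1% of the WT level, with a log2 difference of -0.62 (SE 0.0863).

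Banf1, the nuclear envelope factor, had 128.0, 146.0 and 155.7 CPM in WT and 100.9, 89.7 and 95.7 CPM in cKO. The groups did not overlap, and replicate 1 held both the lowest WT and the highest cKO value. The means were 143.2 ± 14.1 and 95.4 ± 5.62 CPM, or 66.6% of WT, with a log2 difference of -0.59 (SE 0.0906).

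Inka2, the PAK4 inhibitor, had 9.19, 5.92 and 9.43 CPM in WT and 3.66, 2.72 and 2.94 CPM in cKO. The WT library of replicate 2 stood below the other WT libraries but above every cKO library. These values rest on 280 to 461 counts in WT and 125 to 173 in cKO. The coefficient of variation over the WT libraries was 23.9%, where counting alone would give 5.2%. The cKO mean was 38.0% of WT and the log2 difference was -1.40 (SE 0.213).

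D630023F18Rik had 6.94, 5.01 and 6.49 CPM in WT and 2.16, 1.85 and 2.34 CPM in cKO, from 237 to 320 and 85 to 117 counts. Replicate 2 was again the lowest WT library and also the lowest cKO library. At 34.4% of the WT mean, with a log2 difference of -1.54 (SE 0.202), its cKO level was the lowest of the 6 relative to WT.

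The non-coding Gm42047 had 38.8, 27.4 and 32.2 CPM in WT and 13.9, 11.3 and 10.8 CPM in cKO. The groups lay far apart, at 32.8 ± 5.76 and 12 ± 1.69 CPM. The cKO mean was 36.7% of WT, with a log2 difference of -1.45 (SE 0.148). Replicate 2 was the lowest WT library for Inka2, D630023F18Rik and Gm42047, but the highest for Psors1c2 and Dapl1 and the middle one for Banf1. That library had the least Trp53 of the WT libraries but the most Cdkn1a (240.5 CPM). A link between Trp53 level and these genes within WT was not tested.

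Dapl1 had 47.7, 68.8 and 31.5 CPM in WT and 23.2, 40.4 and 14.1 CPM in cKO. Replicate 2 was the highest and replicate 3 the lowest in both groups, and the groups overlapped. The means were 49.3 ± 18.7 and 25.9 ± 13.4 CPM, or 52.6% of WT, with a log2 difference of -0.93 whose SE of 0.503 was the widest of the 6. The highest library was 2.18 times the lowest in WT and 2.87 times in cKO. The within-group SD of Dapl1 was 0.667 on the log2 scale, against a median of 0.125 over the 12859 genes with at least 10 CPM, and lay at percentile 99.8 of them. In bulk samples, fewer cells that make a transcript and less of it per cell cannot be told apart, for Dapl1 and for the other genes.

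On the TPM scale, which is per length and allows levels of different genes to be compared, the order in WT was Psors1c2 at 362.3 ± 10.7 TPM, Banf1 at 215.5 ± 17.2, Dapl1 at 163.3 ± 59.3, Gm42047 at 13.1 ± 2.69, D630023F18Rik at 5.21 ± 0.98 and Inka2 at 3.87 ± 0.995. TPM divides by the full exon length, but reads aligned to several places were left out of the counts. Gm42047 shares 75.1% of its 25-base words with other genes, so its TPM may be too low. Banf1 and D630023F18Rik each share exon bases with another gene, and reads there count for both genes. Banf1 and Dapl1 overlapped in that order, since Dapl1 ranged from 104.0 to 222.6 TPM and Banf1 from 198.9 to 233.3. D630023F18Rik and Inka2 overlapped as well, at 4.13 to 6.05 and 2.72 to 4.47 TPM. In cKO the order of the means was the same, from 239.8 ± 20.9 TPM for Psors1c2 to 1.49 ± 0.24 for Inka2. Psors1c2, Banf1 and Dapl1 stood at percentiles 99.2, 98.5 and 98.0 of the 41307 genes with a WT level above 0 TPM, whereas Inka2 stood at percentile 59.8.

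Same-numbered libraries of both groups were also set side by side, although the labels do not say that a number marks a shared litter or sort. The log2 differences for replicates 1, 2 and 3 were -1.33, -1.12 and -1.68 for Inka2. They were -0.67, -0.60 and -0.60 for Psors1c2 and -0.34, -0.70 and -0.70 for Banf1. For Dapl1 they were -1.04, -0.77 and -1.16, so that cKO was below WT within each number although the groups overlapped. Gm42047 gave -1.48, -1.27 and -1.57, and D630023F18Rik gave -1.68, -1.44 and -1.47. The difference of Banf1 in replicate 1 was the smallest in size of all 18.

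**Figure D2:**
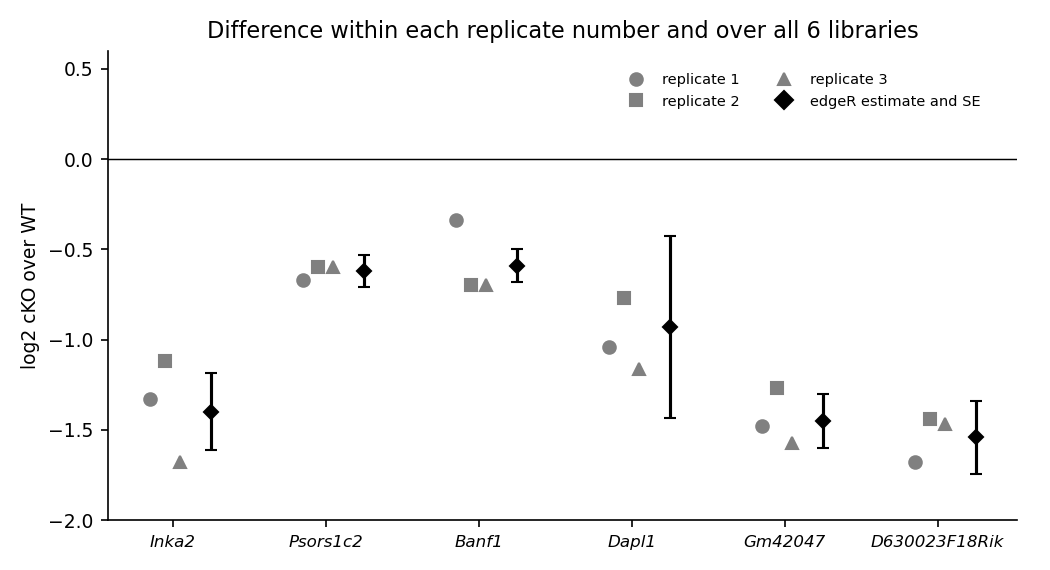
Log2 difference of cKO over WT (vertical axis) within each replicate number (grey symbols) and as edgeR's estimate over all 6 libraries with its SE (black). All 18 grey symbols lie below 0, and the Dapl1 estimate has the longest error bar (SE 0.503) although its 3 grey symbols lie between -1.16 and -0.77.

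Markers of cell types that the sort could carry over were read beside these genes. Summed over 17 thymocyte markers, all of them with counts in every library, the WT libraries had 273.0, 382.9 and 252.3 CPM and the cKO libraries 240.2, 340.4 and 244.7. Replicate 2 was the highest in both groups, as it was for Dapl1, and the groups overlapped. The sums over 12 myeloid markers were 750.1, 1046.6 and 960.1 CPM in WT and 848.8, 1023.9 and 1247.8 in cKO, with no such order. The sums over 8 B cell markers were 153.4, 191.8 and 179.1 CPM in WT and 157.5, 209.3 and 199.3 in cKO, so that replicate 2 was the highest in both groups here too, and the groups overlapped. Fibroblast and endothelial markers (213.5 to 240.1 CPM in WT, 206.9 to 246.2 in cKO) overlapped as well. The sum of 7 erythroid markers was lower in cKO, at 57.2 to 82.8 CPM against 83.5 to 90.3 in WT, although none of the 7 passed the test. No marker of these 5 lists passed in either direction in this fit, and each had at least 1 count in every library. The part of these cells in the values of the 6 genes was not tested.

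**Figure D3:**
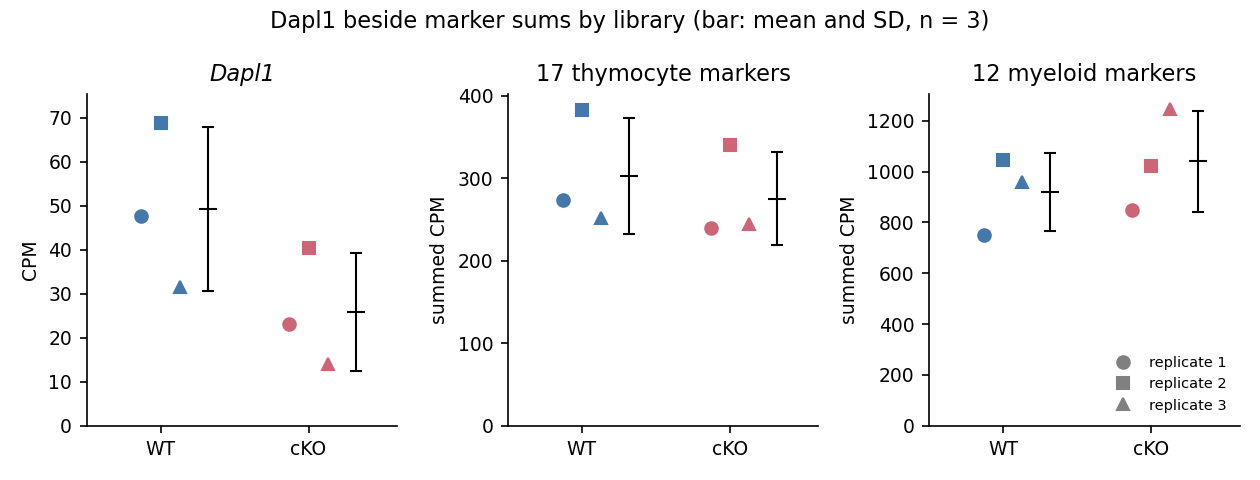
Dapl1 in CPM, and the summed CPM of 17 thymocyte and 12 myeloid markers (vertical axes, from 0), in each WT (blue) and cKO (red) library, with symbols for replicate numbers and bars for mean and SD. Replicate 2 is the highest of its group for Dapl1 (68.8 and 40.4 CPM) and for thymocyte markers (382.9 and 340.4), but the highest cKO library for myeloid markers is replicate 3 (1247.8). Replicate 3 is the lowest WT library for Dapl1 and for thymocyte markers. The lowest cKO library is replicate 3 for Dapl1 (14.1 CPM) but replicate 1 for thymocyte markers (240.2). Psors1c2 is also highest in replicate 2 of both groups.

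The genes around each of the 6 were not used in choosing them and were tested in the fit over all genes. Eif1ad and Gm28845 share exon bases with Banf1 and D630023F18Rik, and reads there were counted for both genes. These neighbours are therefore not readings separate from the 6. Within 100 kb there were 72 other genes, of which 57 were tested. None had an adjusted p below 0.05 in either direction (edgeR), 5 were lower and 3 higher at an unadjusted p below 0.05, and the median log2 difference was -0.07 with 32 of 57 below 0. Over all tested genes the median was -0.005, 51% were below 0, and 1207 of 28543 were lower at an unadjusted p below 0.05. Gm28845 was 1 of the 5 lower neighbours. With DESeq2 1 of the neighbours passed, Sart1 near Banf1.

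The neighbours of Psors1c2 leaned one way without passing the test. All 6 tested genes within 50 kb had values below 0, with a median of -0.33, and 3 of them had an unadjusted p below 0.05. They are not all separate readings. Gm19553 lies within the span of Pou5f1 on the opposite strand, and the counting did not use strand, so they may share reads. The nearest tested genes on either side were Cchcr1, 2186 bases upstream, at -0.27 (SE 0.118, adjusted p = 0.582), and Cdsn, 17481 bases downstream, at -0.32 (SE 0.127, adjusted p = 0.514). Cdsn encodes the corneodesmosin that holds outer skin cells together. Within 100 kb the median was -0.22, with 8 of 10 below 0.

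Banf1 shares 428 of its exon bases (28.6%) with Eif1ad on the opposite strand, and the counting did not use strand and gave a read to every gene it overlapped. Reads from the 2 genes in that overlap cannot be told apart. Eif1ad had 36.2 ± 0.807 CPM in WT against 36.6 ± 0.798 in cKO (log2 difference 0.01, SE 0.0888, adjusted p = 0.984). The Banf1 difference was -47.8 CPM. The part of the shared reads in it was not tested. On the sides of the pair, AC122861.1 stood at 0.16. Sart1, a splicing factor gene 10355 bases from Banf1, had 32.9 ± 5.2 CPM in WT against 46 ± 5.03 in cKO (0.48, SE 0.124, adjusted p = 0.28).

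D630023F18Rik overlaps Gm28845 on the same strand over 383 of its exon bases (14.4%). Gm28845 had 0.978 ± 0.18 CPM in WT against 0.361 ± 0.0683 in cKO, a log2 difference of -1.43 (SE 0.398, adjusted p = 0.316), and its reads in the overlap were counted for both genes. On one side the nearest gene tested was Cryga, which encodes a gamma-crystallin of the eye lens. It lies 1912 bases away and had a log2 difference of -0.74 without passing the test. On the other side, Idh1, the cytosolic isocitrate dehydrogenase gene, stood at 0.15.

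Inka2 had Ddx20, an RNA helicase gene, 17025 bases upstream at 0.03, and Gm43848, 5059 bases downstream, at 0.47 (SE 0.245). The 7 tested genes within 100 kb of Inka2 had a median of 0.23. Dapl1 had no gene within 50 kb and 1 tested gene within 100 kb, Gm13552, at 0.06. Gm42047 lies within the span of Gm20388 without sharing an exon with it, and Gm20388 had a log2 difference of -0.01 (adjusted p = 0.991). Its nearest tested neighbours were Klhdc4 at -0.18 (SE 0.135) and Gm26812 at -0.20.

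**Figure D4:**
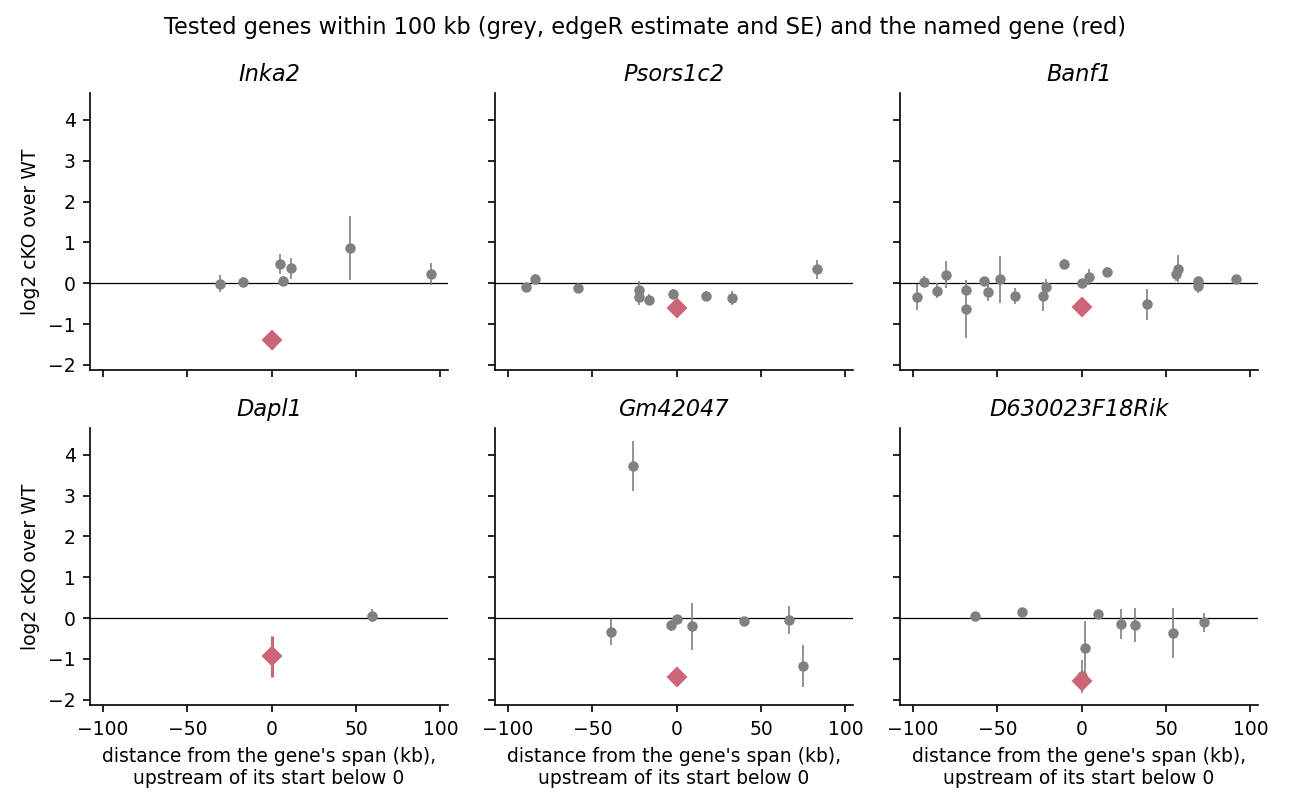
Log2 difference of cKO over WT (vertical axis) of each tested gene within 100 kb (grey, edgeR estimate and SE) against its distance from the gene in kb, with upstream of the gene's start below 0, and the named gene in red. No grey point passed the test, and the highest, near Gm42047, is Gm20406 at 3.72 from 1 to 75 counts a library.

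Parts of a transcript that also occur in other genes limit what a short read can be assigned to. Psors1c2 shared none of its 25-base words with another gene of the annotation, Inka2 shared 1.26% and Dapl1 2.22%. Banf1 shared 31.2%, most of it with Eif1ad, and D630023F18Rik shared 14.3%, most of it with Gm28845. Gm42047 shared 75.1% of its words with 24 other genes, and reads that aligned to several places were left out of the deposited counts. Its counts therefore come from the remaining stretches, or from reads that differ between the copies.

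The 5 genes that shared at least 10% of the Gm42047 words were looked up after the data had been seen, by sequence and not by level. They lie on chromosomes 3, 9, 10 and 12. Gm43549, with 38.6% of the words, had 2.46 ± 0.69 CPM in WT against 0.922 ± 0.28 in cKO, a log2 difference of -1.42 (SE 0.321, adjusted p = 0.206). Gm47939, with 39% of the words, had 1.78 ± 0.345 and 0.807 ± 0.17 CPM, a difference of -1.14 (SE 0.308, adjusted p = 0.307). Gm48362 stood at -0.84 (adjusted p = 0.541) and Gm47761 at -0.76 (adjusted p = 0.466), while Gm46349, with only 13.3% of the words, stood at 0.03. None of the 5 passed the test, and 4 of 5 were below 0, beside 51% of all tested genes. They may not be readings separate from Gm42047, which was chosen for being lower. The counts do not tell whether some of these reads came from another copy.

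The genes of proteins that Banf1 and Inka2 work with were read from the fit over all genes, each tested by itself. Of 15 tested Banf1 partners and nuclear envelope genes, none passed in either direction, the median log2 difference was -0.11 and 13 of 15 were below 0, beside 51% of all tested genes. Vrk1, the kinase that releases Banf1 from DNA, had the smallest p of the list, with 27 ± 1.66 CPM in WT against 20.9 ± 2.31 in cKO (-0.37, SE 0.115, adjusted p = 0.394). Lmnb1, a lamin gene, stood at -0.40 (adjusted p = 0.434), and the LEM-domain gene Emd and the lamin gene Lmna at -0.13 and -0.11. Banf2, the paralog of Banf1, had 0 to 6 counts a library and was not tested.

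Of 13 tested genes of the PAK pathway, none passed, the median was 0.01 and 6 were below 0. Pak4, which encodes the kinase that Inka2 inhibits, had 78.6 ± 5.57 CPM in WT against 78.2 ± 6.85 in cKO (-0.01, SE 0.0931). Inka1, the paralog of Inka2, had 6.34 ± 2.24 and 5.07 ± 0.461 CPM (-0.32, SE 0.236, adjusted p = 0.757). Pak3 had the smallest p of this list, at 0.33 (SE 0.0996, adjusted p = 0.377).

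Genes of the cornified envelope, the outer shell of skin cells, were listed as the setting of Psors1c2. Of 23 tested, none passed, the median was 0.07 and 10 were below 0. At an unadjusted p below 0.05 (edgeR), 3 were lower and 3 higher. Their summed level was 1494.4 to 1517.1 CPM in WT and 1624.4 to 1840.9 in cKO, so the sum was higher in each cKO library. Most of that sum difference lay in Rptn, the repetin gene, named after its values were seen, at 317.1 ± 53.7 CPM in WT against 459.8 ± 71.6 in cKO (0.54, SE 0.137, adjusted p = 0.303). Dmkn, the dermokine gene, had the smallest p, with 61.3 ± 1.45 CPM in WT against 85.8 ± 16.2 in cKO (0.49, SE 0.116, adjusted p = 0.233). Lor, named after its values were seen, went the other way, from 12.1 ± 1.85 CPM in WT to 8.54 ± 0.0651 in cKO. Its log2 difference was -0.50 (SE 0.145, adjusted p = 0.353). Rptn and Dmkn both passed with DESeq2, and Lor did not.

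Dapl1 was set beside its paralog Dap and genes of the pigment epithelium of the eye, where Dapl1 is known to hold down the transcription factor MITF. None of these 11 passed, the median was -0.32 and all 11 were below 0, beside 51% of all tested genes. The values ranged from -0.57 to -0.01, and the least counted of these genes had 3 to 23 counts a library (SE 0.705). Mitf had 6.12 ± 0.282 CPM in WT against 4.13 ± 0.244 in cKO (-0.57, SE 0.163, adjusted p = 0.339). Dap had 96.8 ± 8.8 and 94.8 ± 6.51 CPM (-0.03, SE 0.0918, adjusted p = 0.963).

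Of 32 tested canonical p53 targets, 3 were lower with an adjusted p below 0.05 (Cdkn1a, Ccng1 and Psrc1) and none higher, with a median of -0.19 and 25 below 0. Cdkn1a, the cell cycle inhibitor, went from 232.9 ± 11 CPM in WT to 125.0 ± 6.22 in cKO, a log2 difference of -0.90. Psrc1, a regulator of the mitotic spindle, stood at -1.45, and the 6 genes ranged from -1.54 to -0.59. Because the 6 genes were chosen by this contrast and Psrc1 was named for passing it, nothing is read from these ranges. Differences between genes were not tested.

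The genes whose log2 levels followed each of the 6 most closely over the 6 libraries were named among the 22024 genes with at least 1 CPM. Pearson's r is given as a description, since it mixes the difference between the groups with the spread within them. With 22024 genes and only 6 libraries, high values of r can arise by chance. Nor does r measure the size of a change: Gm6969, the first for Inka2, had a log2 difference of -0.13 (SE 0.0896), beside -1.40 for Inka2. For Inka2 they were Gm6969 (0.994), the p53 target Phlda3 (0.993) and Duxbl2 (0.991). For Gm42047 they were Chchd5 (0.998), Foxn1 (0.991), the master transcription factor of thymic epithelium, and Duxbl2 (0.987). For D630023F18Rik they were Gm29562 (0.999), the centromere gene Cenpw (0.993) and the channel gene Trpm2 (0.991). Banf1 was followed by Gm10175 (0.992), Rps4x-ps (0.991) and Dut (0.990), and Psors1c2 by Gm11626 (0.991), 4930447F24Rik (0.989) and Ublcp1 (0.988). Dapl1 was followed by 1700003M07Rik (0.992), Arhgef40 (0.991) and the chromatin assembly gene Chaf1a (0.986).

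The values of the 6 genes were recomputed under 14 other fits. Gm42047 had an adjusted p below 0.05 in 14 of them and D630023F18Rik in 10, while Inka2 and Banf1 passed in 7, Psors1c2 in 6 and Dapl1 in 1. Psors1c2 did not pass when any 1 library was left out, Inka2 passed only without WT replicate 2 and Banf1 only without WT replicate 1, while D630023F18Rik did not pass without WT replicate 1, WT replicate 3 or cKO replicate 2. The direction was the same throughout: the log2 differences ranged from -1.58 to -1.28 for Inka2, -0.68 to -0.56 for Psors1c2, -0.66 to -0.52 for Banf1, -1.57 to -1.31 for Gm42047 and -1.66 to -1.44 for D630023F18Rik. Dapl1 moved the most, from -1.40 without cKO replicate 2 to -0.61 without WT replicate 2.

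**Figure D5:**
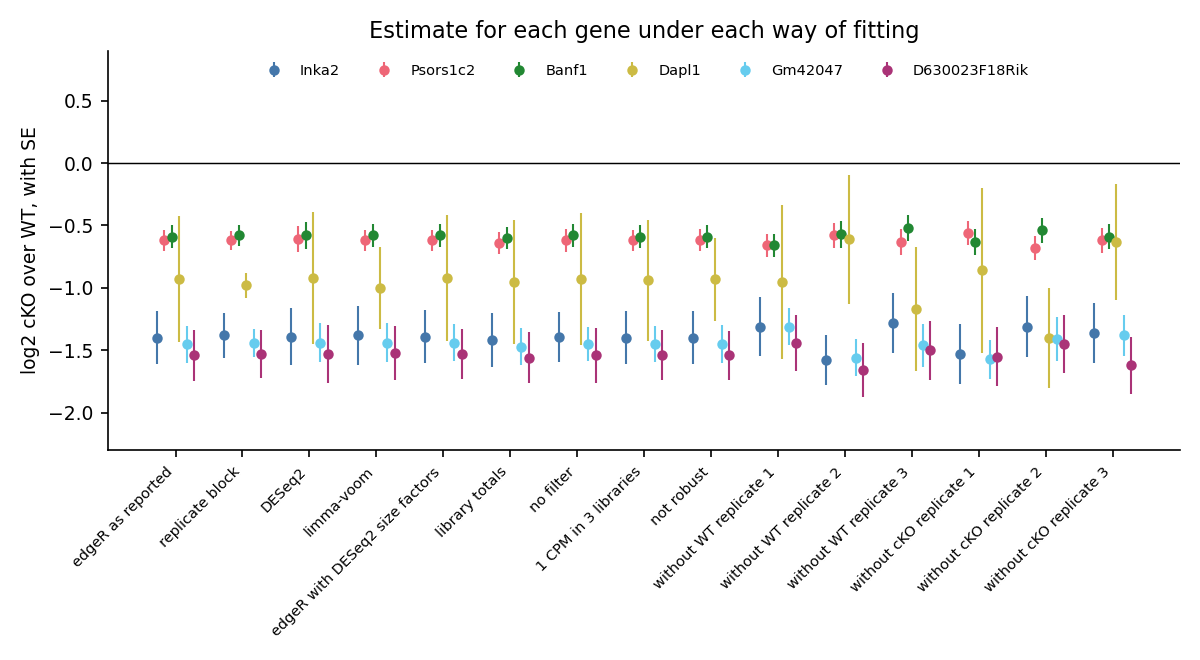
Log2 difference of cKO over WT with its SE (vertical axis) for each gene (colours) under the reported fit and 14 others (horizontal axis). Every point lies below 0, and the points of Dapl1 (-1.40 to -0.61) spread the most.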

How the data were processed

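The authors deposited a table of read counts per gene for each library and a table of TPM (a level per length of transcript) over all 6. TopHat2 2.1.1, SAMtools 1.9, Subread 2.0.1 and mm10 are named per the submitters' processing notes. Per the file headers, featureCounts 2.0.0 summed exons by gene with an Ensembl release 99 annotation of GRCm38, ignored strand, counted a read for each gene it overlapped, and had no option set for read pairs or for reads aligned to several places. Recomputing TPM from the counts and exon lengths gave the deposited TPM within 0.000834%, with low TPM values left out of this check. Counts of the 2 tables were equal for all 51810 shared genes.

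The 3 WT and 3 cKO libraries were compared with edgeR 4.0.16 (R 4.3.3; filterByExpr, TMM, robust quasi-likelihood test), and p-values were adjusted by Benjamini-Hochberg over 28543 genes. DESeq2 1.42.0, limma 3.58.1 (voom), other scalings and filters, leaving out each library and a replicate block were alternatives. The fit was tested on simulated counts. Likeness used log2(CPM + 0.1). Named genes were the 6, Trp53, Cdkn1a, genes overlapping the 6 in exons, the nearest tested gene on each side, the paralogs Inka1, Banf2 and Dap, the genes past the threshold or with the smallest p of each list, and the 3 genes most like each of the 6 by r. Aire, Pak4, Emd, Lmna, Lmnb1, Foxn1 and Phlda3 at the threshold, Gm20388 and the genes sharing words with Gm42047 were named after their values were seen. So were Gm20406, Gm19553, Rptn, Lor, Tcf19, Pou5f1 and 2300002M23Rik. The 6 genes and the lists were chosen with earlier results of these data known.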

Additional observations from a re-analysis of the deposited data

How the results depend on the processing

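All 84 recomputed log2 differences of the 6 genes (14 fits each) kept their direction. Each moved by less than 1 within-group SD of that gene's own log2 CPM. Leaving out 1 of 3 libraries can hardly move a value that far, so nothing is concluded from this limit. For Dapl1, whose SD was 0.667, it left room for a move from -0.93 to -1.40 without cKO replicate 2. The calls depended on the fit. Genes with an adjusted p below 0.05 numbered 17 as reported (edgeR), 175 with DESeq2, 5 with limma-voom, 160 without the filter on low counts, 6 without robust estimation and 6 to 16 when 1 library was left out. Of the 6 genes, 5 passed as reported, 1 with limma-voom, 2 without robust estimation and 1 to 3 when any 1 library was left out. Among the genes of the p53 target, partner and context lists 3 passed as reported, 10 with DESeq2 and 8 without the filter. Among neighbours 0 passed as reported, 1 with DESeq2 (Sart1) and 2 without the filter. Of the 7 promoter windows, 2 held a pair at the 2 mismatches allowed, 0 at none, 1 at 1 and 4 at 3. The causes were not tested.

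A fit with the replicate number as a block called 203 genes (65 lower), 10 genes of those lists (Rptn and Dmkn among them), 1 of the 7 erythroid markers (the hemoglobin gene Hba-a2, lower), 2 neighbours (Sart1 and Gm20406) and 6 of the 6 genes, with Dapl1 at -0.98 (SE 0.1, adjusted p = 6.62e-05). The labels do not pair the libraries, and deviations of same-numbered libraries over all tested genes correlated at 0.13, 0.06 and 0.09. Every library correlated best with its own number, but WT replicate 2 only narrowly (0.06 with cKO replicate 2 and 0.05 with cKO replicate 3). A chi-square per gene between counts gave another order for 2 libraries. By it WT replicate 2 and cKO replicate 3 were nearest each other (17.6), not their own numbers (20.4 and 20.8). The remaining libraries were nearest their own number in the other group. This is at most a hint from the data and not the design.

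Psors1c2, Inka2 and Banf1 lay near the threshold, with adjusted p-values of 0.0297, 0.0424 and 0.0436. Inka2 and D630023F18Rik rest on at most 461 and 320 counts a library, which limits the precision of their levels.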

Other observations

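Gm20406, an antisense gene 25878 bases from Gm42047, was named after its values were seen. It had 0.0777 ± 0.0546 CPM in WT and 1.05 ± 0.488 in cKO, from 1 to 75 counts a library, with a log2 difference of 3.72 (SE 0.617) and an adjusted p of 0.0605 by edgeR's quasi-likelihood test. It lay opposite in direction to Gm42047.

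Tcf19, a gene near Psors1c2 named after its values were seen, had a log2 difference of -0.40 and an unadjusted p of 0.00683 in the same fit, and Pou5f1 on the same side of Psors1c2 and 2300002M23Rik on the other side stood at -0.34 and -0.37 with adjusted p-values of 0.682 and 0.589.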
